A study of Rattus norvegicus with 9 samples.

Results

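The miR-23/27/24 clusters are a pair of related miRNA genes, and their mature products were followed in small RNA libraries from rat hippocampus. One cluster, called a here, holds miR-23a, miR-27a and miR-24-2, and the other, called b, holds miR-23b, miR-27b and miR-24-1. The rule took the 3p arm of each hairpin, both 5p arms of miR-24 and the 5p arms of miR-23a, miR-27a and miR-27b. All of these 10 mature miRNAs were found among the 633 in the deposited table. Of these, 5 come from the a cluster and 4 from the b cluster, while miR-24-3p has the same sequence in both and cannot be assigned to either.

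The libraries came from Sprague-Dawley rats in 3 groups of 3. VEH rats received saline for 14 days and then for 7 more. MK-801 rats received the NMDA receptor blocker MK-801 (dizocilpine) at 0.2 mg/kg once a day for 14 days and then saline for 7 days. MK-801+CLO rats had the same MK-801 course followed by 7 days of the atypical antipsychotic clozapine (CLO) at 10 mg/kg. MK-801 and clozapine were injected intraperitoneally. The sample label gives the age as postnatal day 21, while the protocol describes 14 days of habituation up to 5 weeks of age before treatment. The labels name 10 rats per group but not how many rats a library holds, so the p-values below reflect differences among libraries that could be technical repeats and no more than that. Library totals ran from 10665718 to 18284905 counts. A list of 7 neuron-enriched miRNAs summed to between 273450 and 330590 CPM (the count over the library total, scaled as in the deposited table) in the 9 libraries. Within it miR-127-3p averaged 135014 CPM, miR-9a-5p 84597 CPM and miR-124-3p 3317 CPM. A list of 6 astrocyte-enriched miRNAs summed to between 215420 and 269940 CPM. The cell types in which the listed miRNAs are made were not tested, so these sums give no share of cells. Whether the tissue was hippocampus and not another part of the brain was not tested.

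A miRNA hairpin is cut into a 5p and a 3p arm, and usually one of them, the guide, is kept by Argonaute proteins to repress messenger RNAs that match its seed. The miR-23/27/24 clusters are known from blood vessels, where they act in endothelial growth, and from lipid metabolism, in which miR-27 has many targets. In the nervous system miR-23 represses lamin B1 in oligodendrocytes, and miR-23 and miR-27 repress the cell death factor Apaf-1 in neurons.

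The mature sequences are shown because they set which members share targets and which reads could be confused. They are from RefSeq (GRCr8 tables), where 9 of the 10 members were matched by name with the same letters as in the deposited table. MiR-23a-5p is from the deposited table, with U written for T. Capitals mark the seed, bases 2 to 8 from the 5′ end, and the prefix rno marks rat.
rno-miR-23a-3p: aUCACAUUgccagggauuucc
rno-miR-23b-3p: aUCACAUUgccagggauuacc
rno-miR-27a-3p: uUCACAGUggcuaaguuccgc
rno-miR-27b-3p: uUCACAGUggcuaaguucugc
rno-miR-24-3p: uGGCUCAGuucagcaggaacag
rno-miR-24-2-5p: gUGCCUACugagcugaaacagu
rno-miR-24-1-5p: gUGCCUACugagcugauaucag
rno-miR-27a-5p: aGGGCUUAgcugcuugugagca
rno-miR-27b-5p: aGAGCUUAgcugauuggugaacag
rno-miR-23a-5p: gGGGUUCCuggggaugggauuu

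Each a and b pair of 3p arms shared its seed and differed at 1 of 21 bases. The difference was U19A between miR-23a-3p and miR-23b-3p and C19U between miR-27a-3p and miR-27b-3p, with positions counted from the 5′ end and the a cluster's base first. The 5p arms of miR-24 shared a seed as well and differed at 5 of 22 bases, all from position 17 onward (A17U, C19U, A20C, G21A and U22G from miR-24-2-5p to miR-24-1-5p). By contrast, miR-27a-5p and miR-27b-5p had different seeds. No other miRNA in the table had the seed of any of these arms. The sources used here do not say where reads that fit more than 1 miRNA were counted, so the a and b values of miR-23 and miR-27 are uncertain to the extent that reads could be assigned to the wrong partner.

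In GRCr8 the a cluster lies on the minus strand of chromosome 19 within 389 bases and inside no other annotated gene. The b cluster spans 814 bases on the minus strand of chromosome 17, inside the protein-coding gene Aopep. The hairpins of miR-24 are printed to show how an identical 3p arm comes from different precursors (capitals mark the 5p and then the 3p arm). The a cluster's hairpin lies at chr19:40859455-40859562 and the b cluster's at chr17:1818669-1818736.
Mir24-2: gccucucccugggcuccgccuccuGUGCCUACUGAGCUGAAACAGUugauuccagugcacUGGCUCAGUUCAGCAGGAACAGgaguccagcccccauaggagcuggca
Mir24-1: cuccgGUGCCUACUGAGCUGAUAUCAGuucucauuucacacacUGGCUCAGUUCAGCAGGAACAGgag

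MiR-27b-3p dominated these products. It was the ninth miRNA of the whole table by mean level, at 26776 CPM over all libraries, and held 91.2% of the counts of the 10 members on average (90.1% to 92.2%). MiR-24-3p followed at 838 CPM, miR-27a-3p at 593 CPM, miR-23b-3p at 468 CPM and miR-23a-3p at 345 CPM. Among the 5p arms, miR-24-2-5p was the highest at 253 CPM, ahead of miR-27b-5p at 53.5 CPM, miR-24-1-5p at 14.4 CPM, miR-27a-5p at 1.83 CPM and miR-23a-5p at 0.134 CPM. This order was the same in 9 of 9 libraries, and the ranges of neighbours in the order did not overlap. Small RNA libraries favour some sequences during adapter ligation, so differences in level between miRNAs are differences in counts.

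MiR-23a-5p is the discarded arm of miR-23a and was at the limit of detection, with 0 to 3 counts per library. Its count of 0 in VEH replicate 2 allows up to 0.255 CPM and that in MK-801 replicate 2 up to 0.176 CPM, taken as 3 counts and covering counting error only. It was too low to be tested, and the other 9 members passed the filter on low counts. MiR-27a-5p was just above, with 17 to 39 counts per library.

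**Figure D1:**
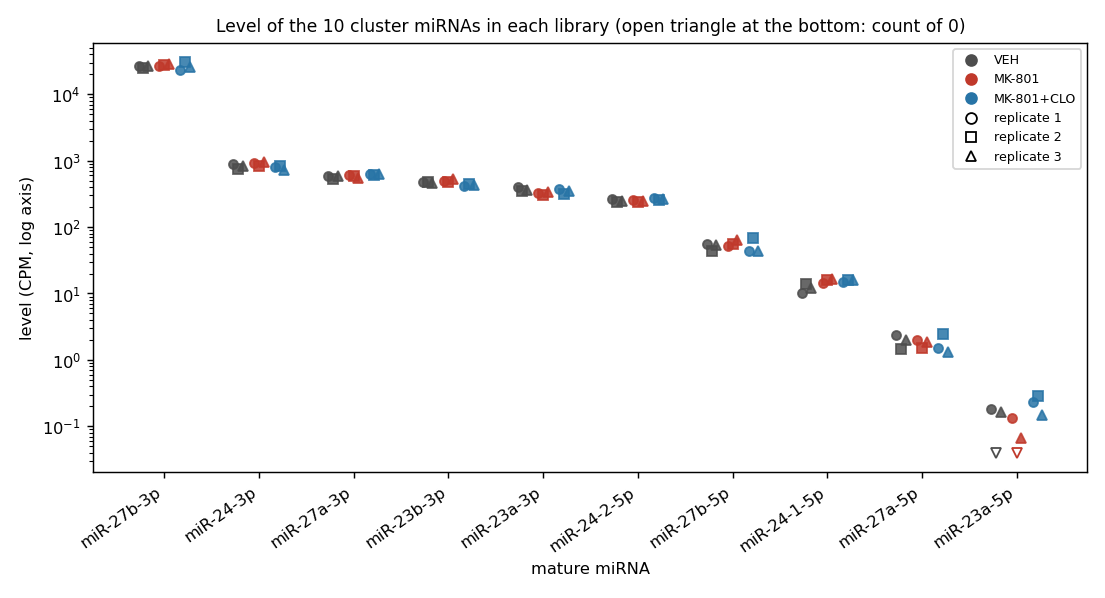
Level of each of the 10 mature miRNAs in the 9 libraries, in CPM on a log axis; colours are groups, symbols are replicate numbers and open triangles at the bottom are counts of 0. MiR-27b-3p stands apart at 26776 CPM on average, and miR-23a-5p lies at 0 to 3 counts.

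The balance of the clusters differed from position to position. For miR-27 the b product was 45.3-fold the a product on average, with a range of 37.2 to 53.3 over the libraries. For miR-23 the b product was only 1.37-fold the a product, from 1.12 in MK-801+CLO replicate 1 to 1.59 in MK-801 replicate 2. For the 5p arm of miR-24 the balance was turned around, and the a product miR-24-2-5p was 18.1-fold miR-24-1-5p (15.0 to 26.5). Each of these imbalances had the same direction in 9 of 9 libraries, with p = 0.0039 in an exact two-sided sign-flip permutation test (n = 9), the smallest p that test can give, and 0.0039 after adjustment over the 3 pairs. Any pair of miRNAs that keeps its order in 9 of 9 libraries reaches this p. It therefore speaks for the order of counts only, and not for the output of a cluster. Within the b cluster miR-27b-3p was 57.4 ± 4.38-fold miR-23b-3p (mean ± SD, 9 libraries), while in the a cluster miR-27a-3p was 1.73 ± 0.179-fold miR-23a-3p.

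The arms of the hairpins also parted. The 5p arm made up 0.198% of miR-27b counts and 0.308% of miR-27a counts on average, but both 5p arms together made up 24.3% of all miR-24 counts (21.7% to 28.2%). Almost all of that was miR-24-2-5p, with 94.6% of the 5p counts (93.8% to 96.4%). The 3p counts of miR-24 cannot be split by locus, so the exact arm share of each hairpin is unknown. MiR-24-3p from both loci together was 3.32-fold miR-24-2-5p on average (2.70 to 3.84). This sets a lower limit to the 5p share of Mir24-2 counts, since some 3p counts may come from Mir24-1.

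What a repeated NMDA receptor block leaves behind in the hippocampus was read from MK-801 against VEH. None of the 9 tested members passed an adjusted p of 0.05 in edgeR, where 0 of 469 miRNAs did (0%). At an unadjusted p under 0.05, 24 miRNAs (5.12%) stood out, of which 1 was a member. With VEH replicate 3 left out 15 did so, and with MK-801 replicate 2 left out 37. There was 1 call in DESeq2 and 0 in limma voom, with no member among them. A log2 fold change above 0 was found for 7 of the 9 members, against 46.5% of all miRNAs tested, and the members' median was 0.12 against -0.018 for all. Fold changes are on the log2 scale ± SE, from counts scaled by TMM, with 3 libraries on each side.

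The member at an unadjusted p under 0.05 was miR-24-1-5p, the 5p arm of the b cluster's miR-24. It was at 10.0, 14.0 and 12.0 CPM in VEH replicates 1, 2 and 3 and at 14.6, 15.8 and 16.3 CPM in MK-801 replicates 1, 2 and 3. The MK-801 libraries thus all lay above VEH, though VEH replicate 2 came close to MK-801 replicate 1. Of the 9 members it was the 1 whose groups did not overlap on the TMM scale, against 12.6% of all miRNAs, of which 5.97% lay higher and 6.61% lower in MK-801. Its log2 fold change was 0.40 ± 0.14, with an adjusted p of 0.642 in edgeR (0.413 to 0.988 over the alternatives). These values rest on 165 to 269 counts per library, and the nearest libraries did not differ beyond counting error (95% Wilson intervals 12.0 to 16.3 CPM in VEH replicate 2 and 12.8 to 16.7 CPM in MK-801 replicate 1). Without VEH replicate 1, its lowest library, the log2 fold change was 0.27.

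MiR-23a-3p and miR-23b-3p, which share a seed, had fold changes of opposite sign. MiR-23a-3p was at 403, 351 and 357 CPM in the VEH replicates and at 327, 305 and 339 CPM in the MK-801 replicates, for a log2 fold change of -0.17 ± 0.11 (adjusted p = 0.814 in edgeR). All MK-801 libraries were below all VEH libraries in CPM, but MK-801 replicate 3 (349 TMM-scaled CPM) passed VEH replicate 2 (340 TMM-scaled CPM) after TMM scaling. MiR-23b-3p was at 484, 470 and 455 CPM in VEH and at 498, 484 and 529 CPM in MK-801, with a log2 fold change of 0.12 ± 0.10 (adjusted p = 0.824 in edgeR). Its groups overlapped at 484 CPM, the level of VEH replicate 1 and MK-801 replicate 2. When the miR-23 rows were summed, the log2 fold change was -0.01.

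The 3 remaining 3p arms lay within their SE or a little above it. MiR-27b-3p was at 26851, 24779 and 26370 CPM in VEH and at 26922, 27757 and 29076 CPM in MK-801 (0.13 ± 0.11). MiR-24-3p was at 0.14 ± 0.11 and miR-27a-3p at 0.04 ± 0.09. Of the other 5p arms, miR-24-2-5p was at 0.00 ± 0.10, miR-27b-5p at 0.20 ± 0.20 and miR-27a-5p at -0.11 ± 0.30.

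**Figure D2:**
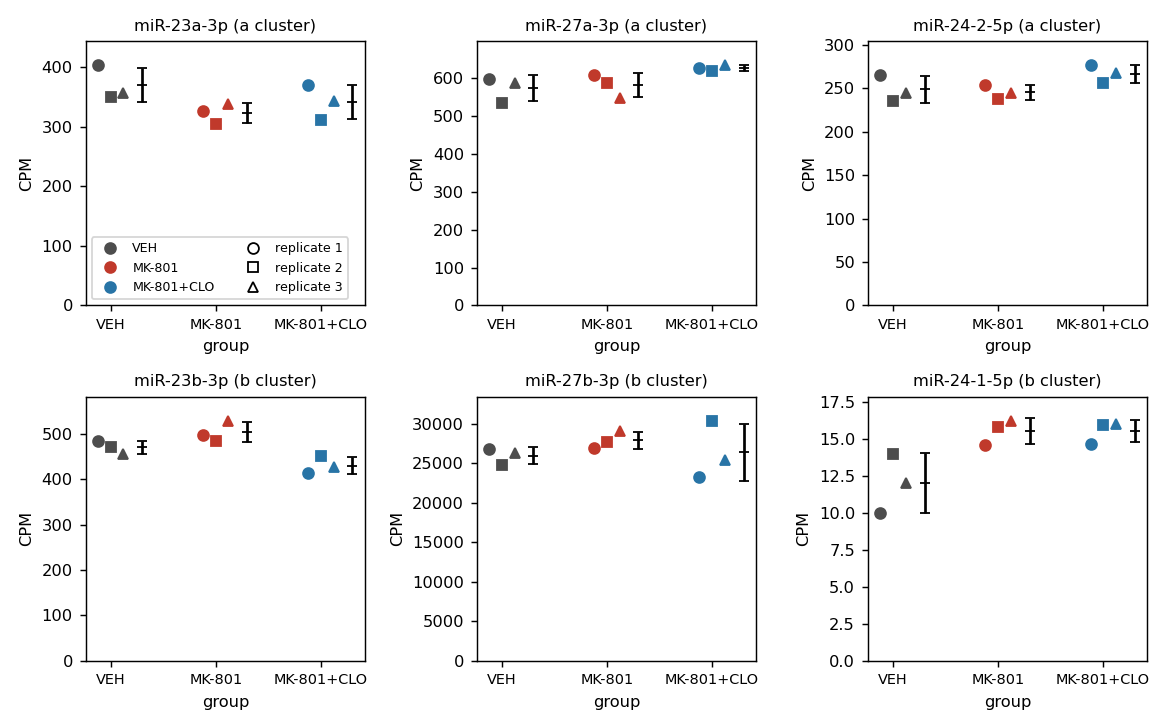
Level of the a products (top row) and b products (bottom row) of miR-23, miR-27 and the miR-24 5p arm in each library, in CPM on linear axes from 0; black bars are group mean ± SD (n = 3). MiR-24-1-5p lies at 10.0 to 14.0 CPM in VEH and at 14.6 to 16.3 CPM in the libraries of the drug-treated groups.

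The effect of clozapine given after the MK-801 course was read from MK-801+CLO against MK-801. Again 0 of 469 miRNAs passed the adjusted threshold in edgeR (0%), and 39 (8.32%) had an unadjusted p under 0.05, with no member among them. Without MK-801 replicate 1 there were 23 and without MK-801+CLO replicate 3 there were 18. DESeq2 called 2 miRNAs and limma voom 0, and neither called a member. Above 0 were the log2 fold changes of 4 of the 9 members, against 48.8% of all miRNAs, with a median of -0.011 against -0.0044.

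A pair of a cluster products lay wholly higher with clozapine. MiR-27a-3p was at 608, 588 and 546 CPM in MK-801 replicates 1, 2 and 3 and at 627, 617 and 633 CPM with clozapine, for a log2 fold change of 0.15 ± 0.09 (adjusted p = 0.680 in edgeR). MiR-24-2-5p was at 254, 237 and 244 CPM in MK-801 and at 276, 256 and 268 CPM in MK-801+CLO (0.16 ± 0.10, adjusted p = 0.680 in edgeR). The groups of these 2 of 9 members did not overlap, against 11.5% of all miRNAs, of which 7.04% lay higher and 4.48% lower with clozapine. The margin was narrow for each, as the nearest libraries were 608 and 617 CPM for miR-27a-3p and 254 and 256 CPM for miR-24-2-5p. With upper-quartile scaling, which moved the median of all miRNAs to -0.12, the log2 fold changes were 0.037 for miR-27a-3p and 0.0442 for miR-24-2-5p.

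MiR-23b-3p went the other way, at 413, 450.04 and 427 CPM in the MK-801+CLO replicates, below the 484 to 529 CPM of MK-801 (-0.19 ± 0.10, adjusted p = 0.623 in edgeR). These groups did not overlap in CPM but did after TMM scaling, where MK-801+CLO replicate 2 reached 466 and MK-801 replicate 2 fell to 459 TMM-scaled CPM. MiR-23a-3p was at 0.11 ± 0.11, so the members of the miR-23 pair again had opposite signs. Under the same upper-quartile scaling miR-23a-3p was at -0.0029 and miR-23b-3p stayed negative.

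MiR-27b-3p spread widely with clozapine, at 23328, 30424 and 25472 CPM in replicates 1, 2 and 3. Replicate 2 was the highest of all 9 libraries and replicate 1 the lowest, and the log2 fold change against MK-801 was -0.04 ± 0.11. Its own 5p arm was highest in replicate 2 as well, at 43.4, 68.3 and 42.9 CPM. MiR-24-3p was at 813, 843 and 723 CPM with clozapine and at 918, 829 and 940 CPM in MK-801 (-0.14 ± 0.11). MiR-24-1-5p stood at 14.7, 15.9 and 16.0 CPM, the range it had in MK-801 (0.04 ± 0.14).

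For MK-801+CLO against VEH, the full course against saline, 0 of 469 miRNAs passed in edgeR (0%), 70 (14.9%) had an unadjusted p under 0.05, DESeq2 called 11 and limma voom 0. The 70 became 38 without VEH replicate 3 and 34 without MK-801+CLO replicate 3. Of the 70, 1 was a member, miR-24-1-5p, at 0.44 ± 0.14 on the log2 scale (adjusted p = 0.205 in edgeR, 0.135 to 0.643 over the alternatives), or 0.32 without VEH replicate 1. No member was among the DESeq2 calls. MiR-24-1-5p, miR-24-2-5p (0.16 ± 0.10) and miR-27a-3p (0.19 ± 0.09, adjusted p = 0.355 in edgeR) had all MK-801+CLO libraries above all VEH libraries on the TMM scale. These 3 of 9 stand against 17.9% of all miRNAs whose groups did not overlap, 9.38% higher and 8.53% lower. Log2 fold changes were above 0 for 6 of the 9 members and for 50.1% of all miRNAs. For miR-27a-3p the VEH replicates were at 597, 533 and 587 CPM. For miR-24-2-5p, VEH was at 265, 236 and 244 CPM, and on this unscaled CPM VEH replicate 1 exceeded MK-801+CLO replicate 2. This comparison shares its libraries with both of the others. The remaining 6 tested members lay between -0.12 (miR-27a-5p) and 0.09 (miR-27b-3p).

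**Figure D3:**
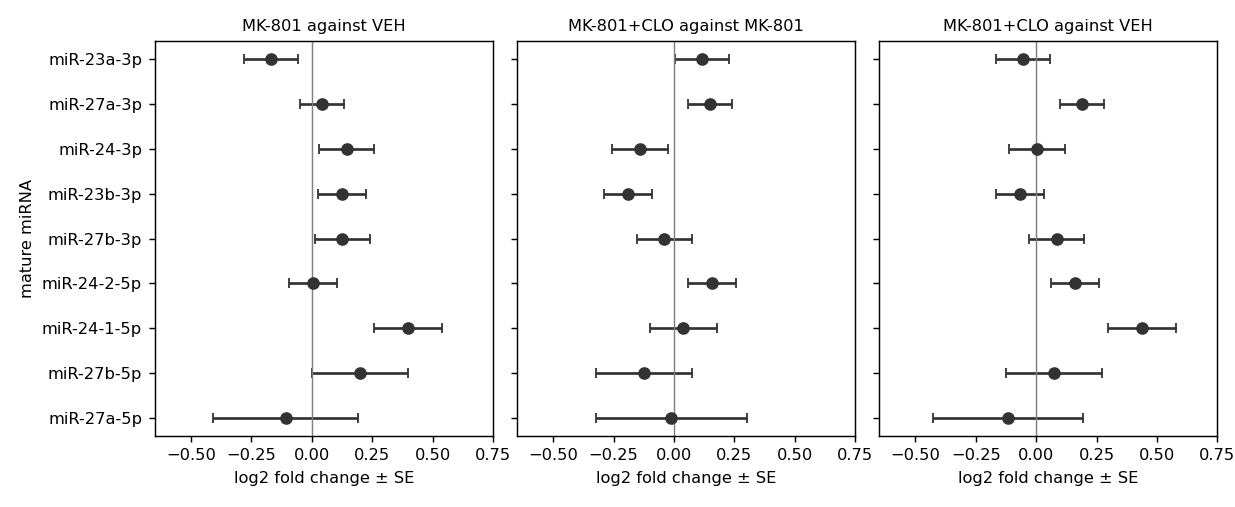
Log2 fold change of the 9 tested members in each comparison (points) with its SE from edgeR (bars); the grey line marks no change. No member passed an adjusted p of 0.05, and miR-24-1-5p is highest at 0.40 against VEH in MK-801 and 0.44 in MK-801+CLO.

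The a to b ratio was then taken within each library, which removes any scaling between libraries. For miR-23 the log2 ratio of the a to the b product was -0.264, -0.424 and -0.350 in VEH replicates 1, 2 and 3. In MK-801 it was -0.606, -0.665 and -0.643, and with clozapine -0.159, -0.528 and -0.310. All 3 MK-801 libraries thus lay below every library of the other groups, and their SD was 0.0296 against 0.0802 in VEH and 0.185 in MK-801+CLO. How many ratios of other miRNAs separate the groups in this way was not counted. Of single miRNAs on the TMM scale, 12.6% did not overlap between MK-801 and VEH and 11.5% between MK-801+CLO and MK-801. As a share, miR-23a-3p made up 44.0% ± 1.37 of miR-23 counts in VEH, 39.1% ± 0.488 in MK-801 and 44.3% ± 3.16 in MK-801+CLO (SD, n = 3).

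The mean log2 ratio fell by 0.292 from VEH to MK-801 and was higher by 0.306 in MK-801+CLO than in MK-801, against a difference of 0.014 between MK-801+CLO and VEH. An exact permutation test of the spread among the means of the 3 groups gave p = 0.05. The adjusted p over the 3 ratios was 0.139, so the difference did not pass. The exact two-sided test of pairs gave p = 0.10 both between MK-801 and VEH and between MK-801 and clozapine. That is the smallest p that 3 against 3 can give, and the adjusted p was 0.45 over 9 tests. Single clozapine libraries moved the test over 3 groups, to p = 0.0107 without MK-801+CLO replicate 2 and p = 0.0393 without MK-801+CLO replicate 1 (exact permutation). Without any other single library the exact p was 0.0679 to 0.121.

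The ratio of miR-27 did not follow that of miR-23. Its log2 a to b ratio was -5.506 ± 0.0277 in VEH, -5.589 ± 0.135 in MK-801 and -5.390 ± 0.209 in MK-801+CLO (SD, n = 3), with overlapping groups and p = 0.325 in the exact permutation test over 3 groups (adjusted p = 0.325). Without MK-801+CLO replicate 2, the library with the highest miR-27b-3p, that exact test gave p = 0.0143, and without any other single library 0.25 to 0.643.

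For the 5p arms of miR-24 the log2 ratio of the a to the b product was 4.729, 4.071 and 4.344 in the VEH replicates, 4.121, 3.908 and 3.911 in MK-801 and 4.234, 4.005 and 4.064 in MK-801+CLO. The MK-801 mean was lower than that of VEH by 0.401, but VEH replicate 2 lay within the MK-801 range. The exact permutation test over 3 groups gave p = 0.0929 (adjusted p = 0.139). The exact permutation p was 0.0107 without VEH replicate 2, 0.261 without VEH replicate 1 and 0.0278 when libraries were permuted within replicate numbers, the smallest value that form can give.

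**Figure D4:**
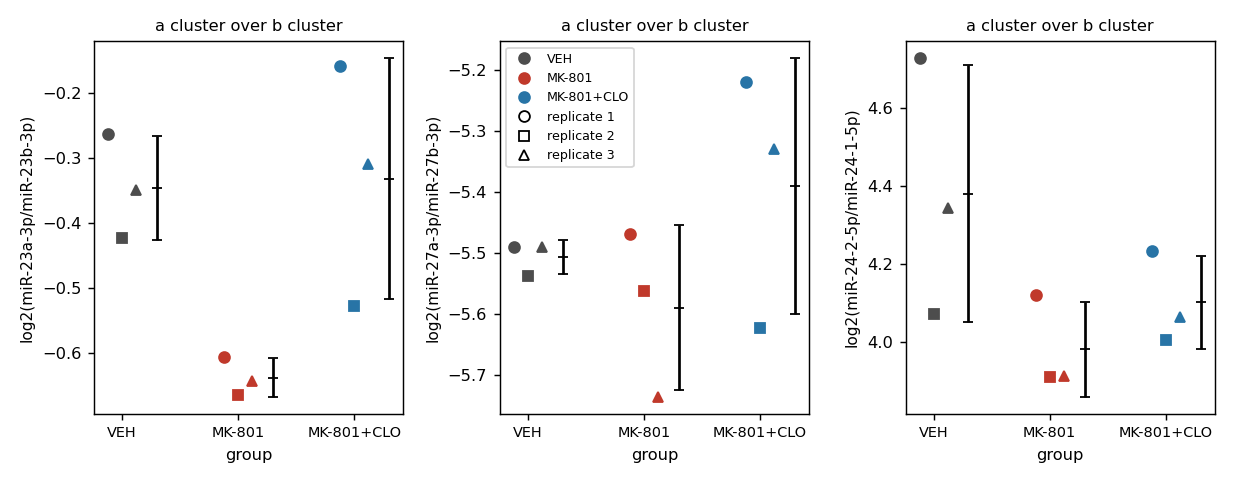
Log2 ratio of the a to the b product of miR-23, miR-27 and the miR-24 5p arm within each library; coloured symbols are libraries, black bars are group mean ± SD (n = 3), and each panel has its own axis. For miR-23 the MK-801 libraries lie at -0.606 to -0.665, below the -0.159 to -0.528 of the other groups.

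A pair of other ratios was chosen after their values were seen and is given without a test. The 3p to 5p ratio of miR-24, miR-24-3p over miR-24-2-5p, was 3.39, 3.20 and 3.36 in the VEH replicates, 3.62, 3.50 and 3.84 in MK-801 and 2.95, 3.30 and 2.70 in MK-801+CLO. All MK-801 libraries were above both other groups, which overlapped each other. The share of other ratios that separate the groups so was not counted. Within the a cluster, miR-27a-3p over miR-23a-3p was 1.48, 1.52 and 1.65 in VEH, 1.86, 1.92 and 1.61 in MK-801 and 1.69, 1.98 and 1.84 in MK-801+CLO. All MK-801+CLO libraries lay above VEH in this ratio, and MK-801 replicate 3 lay within the VEH range.

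Whether products of a cluster vary together was examined over the 9 libraries, on log2 TMM-scaled CPM, for the 28 pairs among the 8 members with a mean of at least 10 CPM. Of these, 2 pairs passed an adjusted p of 0.05 in an exact permutation test of Pearson's r. Both lie within a cluster, and the first joins the arms of a single hairpin. Other pairs within a cluster did not pass. In the b cluster, miR-24-1-5p had r = 0.14 with miR-23b-3p, 0.38 with miR-27b-3p and 0.19 with miR-27b-5p. The arms of miR-27b, miR-27b-3p and miR-27b-5p, had r = 0.93 (exact p = 0.000868, adjusted p = 0.0242) and Spearman's rho = 0.77 (exact p = 0.0214, adjusted p = 0.15). In the a cluster, miR-27a-3p and miR-24-2-5p had r = 0.88 (exact p = 0.00173, adjusted p = 0.0242) and rho = 0.93 (exact p = 0.00075, adjusted p = 0.021).

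Without the 2 libraries farthest from the median of the first member, r was 0.86 for the miR-27b arms and 0.79 for miR-27a-3p with miR-24-2-5p. On deviations from the group means r was 0.93 and 0.75, and with library totals in place of TMM it was 0.94 and 0.79. The number of pairs past the threshold was then 0, 0 and 1. For the deviations, libraries were permuted within groups, where the smallest p the test can give is 0.00463. The miR-27b arms reached it, for 0.13 after adjustment.

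MiR-23a-3p did not move closely with its cluster partner miR-27a-3p (r = 0.22, rho = 0.30, exact p = 0.581 and 0.437, adjusted p = 0.852 and 0.775), and r with miR-24-2-5p was 0.58 (rho = 0.53, exact p = 0.0974 and 0.148, adjusted p = 0.341 and 0.459). The latter r was 0.91 on deviations from group means (exact permutation p = 0.0185, adjusted p = 0.259) and 0.30 without MK-801 replicate 2 and VEH replicate 1. Partners from different clusters that share a seed had r = -0.08 for miR-23 (rho = -0.33, exact p = 0.836 and 0.385, adjusted p = 0.901 and 0.775) and r = 0.28 for miR-27 (rho = 0.35, exact p = 0.475 and 0.359, adjusted p = 0.852 and 0.775).

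MiR-24-3p, the product of both loci, had r = 0.77 with miR-23b-3p (rho = 0.78, exact p = 0.0124 and 0.0172, adjusted p = 0.116 and 0.15). With miR-27b-3p it had r = 0.65 (rho = 0.62, exact p = 0.0609 and 0.0857, adjusted p = 0.244 and 0.3). With miR-24-2-5p, the other arm of its a hairpin, r was 0.26 (rho = 0.08, exact p = 0.496 and 0.843, adjusted p = 0.852 and 0.908). With miR-24-1-5p, the other arm of its b hairpin, r was 0.03 (rho = 0.13, exact p = 0.947 and 0.744, adjusted p = 0.957 and 0.867). None of these passed after adjustment. The r with miR-23b-3p was 0.37 without the 2 farthest libraries, MK-801 replicates 1 and 3, which also narrows the range of values. It was 0.71 on deviations from group means and 0.72 with library totals. On deviations from group means, r was 0.72 with miR-24-2-5p and -0.36 with miR-24-1-5p. MiR-23b-3p with miR-27b-3p had r = 0.67 (rho = 0.70, exact p = 0.0457 and 0.0433, adjusted p = 0.244 and 0.242), and 0.25 without MK-801 replicate 3 and MK-801+CLO replicate 1.

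**Figure D5:**
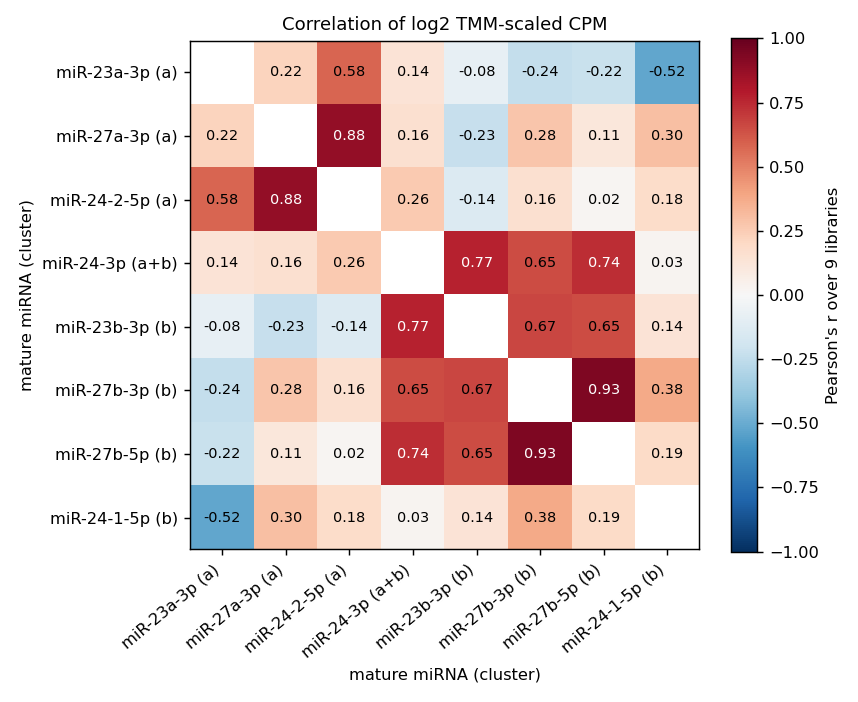
Pearson's r of log2 TMM-scaled CPM over 9 libraries for 8 members, ordered by cluster (a, both, b); red is positive and blue negative. The highest values are 0.93 for the miR-27b arms and 0.88 for miR-27a-3p with miR-24-2-5p. MiR-24-3p has 0.65 to 0.77 with 3 of the b products but 0.03 with miR-24-1-5p, the other arm of its b hairpin.

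Among the 324 other miRNAs with a mean of at least 10 CPM, those most like each abundant 3p arm were found by the same r over 9 libraries, as a description; all values share the TMM factors. MiR-27a-3p was most like miR-143-3p (r = 0.88), miR-497-5p (0.87) and miR-499-5p (0.85). MiR-23a-3p was most like miR-376c-3p (0.85), miR-195-5p (0.75) and miR-125a-5p (0.75). In the b cluster, miR-23b-3p was most like miR-138-5p (0.82), miR-22-5p (0.80) and miR-325-3p (0.77), and miR-27b-3p most like miR-25-3p (0.92), let-7d-3p (0.88) and miR-28-3p (0.86). MiR-24-3p was most like miR-146b-5p (0.95), miR-22-5p (0.92) and miR-30c-2-3p (0.88).

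Lists of miRNAs of other cell types were set beside the members, since bulk tissue cannot tell fewer cells of a type from less RNA per cell. No listed miRNA passed an adjusted p of 0.05 in any comparison with edgeR. Endothelial and mural miRNAs, from vessels in which these clusters are known to act, lay higher in MK-801 than in VEH for 2 of 8 tested (median log2 fold change -0.045) and higher with clozapine than in MK-801 for 5 of 8 (median 0.13). Their summed level was 26258 to 28317 CPM in MK-801 and 28640 to 33687 CPM in MK-801+CLO, so the sums of these groups did not overlap. Of single miRNAs, 11.5% did not overlap between these groups on the TMM scale. Most of the sum was miR-143-3p, at 18810 CPM on average. The list went both ways with clozapine against MK-801. Log2 fold changes were 0.33 ± 0.09 for miR-143-3p and 0.30 ± 0.09 for miR-126a-3p but -0.28 ± 0.12 for miR-221-3p. These 3 of 8 had an unadjusted p under 0.05 in edgeR, against 8.32% of all miRNAs. MiR-222-3p and miR-145-3p were at -0.14 as well. Against VEH the MK-801+CLO sums overlapped those of VEH (26029 to 29038 CPM), with 4 of 8 higher (median -0.046). In that comparison 4 of 8 had an unadjusted p under 0.05 in edgeR, against 14.9% of all miRNAs. Higher were miR-143-3p (0.32 ± 0.09), miR-126a-5p (0.30 ± 0.09) and miR-126a-3p (0.28 ± 0.09), and lower was miR-221-3p (-0.35 ± 0.12). The part of endothelial and mural cells in the values of miR-27a-3p and miR-24-2-5p was not tested.

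Astrocyte-enriched miRNAs lay higher for 4 of 6 in MK-801 (median 0.13) and for 4 of 6 with clozapine against MK-801 (0.10), and neuron-enriched miRNAs for 2 of 7 (-0.029) and 3 of 7 (-0.032). Oligodendrocyte miRNAs lay higher for 3 of 4 (0.34) and 1 of 4 (-0.23), myeloid and lymphoid miRNAs for 3 of 5 (0.23) and 3 of 5 (0.16), and red blood cell miRNAs for 0 of 4 (-0.16) and 4 of 4 (0.23). Choroid plexus and ependymal miRNAs lay higher for 0 of 5 (-0.37) and 1 of 5 (-0.48). The 1 that lay higher with clozapine was miR-211-5p, at 0.74 ± 0.17. Their sum reached 10427 CPM in the highest VEH library against at most 4128 CPM in the other groups. The lowest VEH sum was 3695 CPM, within the 3465 to 4128 CPM of MK-801. In VEH replicate 3 miR-204-5p alone was at 8583 CPM. The part of these cell types in the members' values was not tested. From the same loci but outside the rule, miR-23b-5p was at 0.330 CPM and miR-3074, annotated over the miR-24-1 hairpin, at 0.805 CPM on average.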

How the data were processed

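Libraries from rat hippocampus, 9 in all, were grouped by title. The authors deposited a table of miRNA counts and, beside them, values headed TPM. Those deposited values equal the counts divided by library totals and scaled alike (largest relative difference 0.000473%), so they are CPM with no length term. The submitters' processing notes list Rnor_6.0, cutadapt 1.14, DESeq and Bowtie with no roles. Blank lines (21) were dropped and 1 split name rejoined.

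A model of all 9 libraries was fitted to the counts with edgeR 4.0.16 under R 4.3.3 (filterByExpr, 469 of 633 miRNAs; TMM; glmQLFit and glmQLFTest; Benjamini-Hochberg at 0.05). SE is the absolute log2 fold change over the square root of F. Alternatives used DESeq2 1.42.0, limma 3.58.1, other scalings and filters, a block, and each library left out. The code was tested on simulated data. Permutation tests enumerated all assignments (1680 for 3 groups), and Wilson intervals came from SciPy 1.17.1. Intervals and floors cover counting error only. No libraries agreed within sampling noise (chi-square), so none were merged.

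The text names all members, the listed marker miRNAs and the 3 miRNAs most like each abundant 3p arm. The members and lists were chosen with earlier results of these data known. Hairpin positions are from RefSeq GRCr8, which is not the build named in the notes.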

Additional observations from a re-analysis of the deposited data

How the results depend on the processing

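No member passed an adjusted p of 0.05 in any of the 456 alternatives run for the 27 member values. The number of all miRNAs past that threshold was 0 in every edgeR and limma voom setting with all libraries. It was 1, 2 and 11 with DESeq2 for MK-801 against VEH, MK-801+CLO against MK-801 and MK-801+CLO against VEH. With single libraries left out it ran from 0 to 1, from 0 to 2 and from 0 to 7 in that order, the higher values being without MK-801 replicate 2, without MK-801+CLO replicate 2 and without MK-801+CLO replicate 2.

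The same replicate numbers occur in all groups, but same-numbered libraries did not deviate together (r of deviations from group means from -0.58 to 0.31), so the numbers name libraries only. With the replicate number as a block, 0 miRNAs passed in each comparison. The block gave p = 0.0833, 0.389 and 0.0278 for the ratios of miR-23, miR-27 and the miR-24 5p arms over 3 groups (exact permutation), against 0.05, 0.325 and 0.0929 without it. Leaving out single libraries moved these exact p-values from 0.0107 to 0.121, from 0.0143 to 0.643 and from 0.0107 to 0.261. A count of 1 added to both members left these p-values and their side of the threshold as they were.

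Values of members changed sign under some settings. Where the a and b rows of miR-23 and miR-27 were summed, the value is that of the sum and not of a member. MiR-27a-3p made up 2.18% of the miR-27 sum on average. The cause of the other changes was not tested. For MK-801 against VEH, miR-24-2-5p was at -0.0195 with library totals and -0.0056 in the fit with summed rows. The summed row of miR-23 was at -0.0069, against 0.12 for miR-23b-3p and -0.17 for miR-23a-3p alone. With single libraries left out, miR-27a-3p ran from -0.00988 to 0.0692, miR-24-2-5p from -0.036 to 0.0629 and miR-27a-5p from -0.262 to 0.0345. For MK-801+CLO against MK-801, miR-23a-3p was at -0.0029 with upper-quartile factors. The summed row of miR-23 was at -0.0497, against 0.11 for miR-23a-3p and -0.19 for miR-23b-3p alone. That of miR-27 was at -0.0185, against 0.15 for miR-27a-3p and -0.04 for miR-27b-3p alone. MiR-24-1-5p was at -0.0704 with upper-quartile factors and -0.00086 with library totals. MiR-27a-5p was at 0.0094 with RLE factors, 0.0004991 with only the libraries compared, 0.0054 with summed rows and 0.0132 with DESeq2. With single libraries left out, miR-27b-3p ran from -0.162 to 0.0629, miR-27b-5p from -0.391 to 0.00515 and miR-27a-5p from -0.318 to 0.151. For MK-801+CLO against VEH, miR-24-3p was at -0.0156 with upper-quartile factors, -0.0563 with library totals and -0.0084 at 10 CPM or more. With single libraries left out, miR-23a-3p ran from -0.0992 to 0.0106, miR-24-3p from -0.0763 to 0.0728, miR-27b-3p from -0.057 to 0.191, miR-27b-5p from -0.216 to 0.205 and miR-27a-5p from -0.448 to 0.0417.

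Of 28 correlations, 2 passed with all libraries and TMM, 1 with library totals, 0 on deviations from group means and 0 without the 2 farthest libraries. Among the 10 pairs compared across these settings, those that changed sign were miR-24-3p with miR-24-2-5p (-0.0532) and miR-27a-3p with miR-27b-3p (-0.113), both with library totals, and miR-23a-3p with miR-23b-3p (0.425) on deviations from group means. Some of the other pairs changed sign too. Depth limits miR-23a-5p and miR-27a-5p most.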
